A study of Mus musculus with 2 samples.

Results

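The genes described here are 32 components and reported target genes of the Hippo pathway, chosen by symbol, of 18651 genes listed in at least 1 of 2 RNA sequencing libraries. Of them, 26 encode kinases, adaptors, upstream regulators, coactivators or cofactors of the pathway, and 6 are genes that YAP and TEAD are known to activate. All 32 were found by symbol in both libraries, on 17 chromosomes, and all reached the floor of 1 CPM (reads per 1000000 reads of the library, mean over both libraries) used for counts of genes. The libraries come from cultured mouse oligodendrocyte lineage cells of the strain C57BL/6. The label of the control library says wild type; that of the Seh1cKO library says mutant, and its cells carry a conditional knockout of Seh1l, with no Cre driver and no deleted exons stated in the sources used here. In both groups, precursor cells were immunopanned from forebrain cortex of pups at postnatal day 4 to 7 and expanded in medium with 20 ng/ml PDGF-AA, 20 ng/ml bFGF, 10 ng/ml CNTF and 1 ng/ml NT3. T3 (triiodothyronine, 60 nM) was then added and the factors other than CNTF removed, and the cells are labelled as immature oligodendrocytes at T3 day 2. Each group has 1 library, and the labels give no number of animals or cultures.

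The Hippo pathway is a kinase cascade that keeps the coactivators YAP and TAZ out of the nucleus. The MST kinases, with the scaffold SAV1, activate the LATS kinases and their partner MOB1, and LATS phosphorylates YAP and TAZ, which are then held in the cytoplasm or degraded. Without that phosphorylation YAP and TAZ enter the nucleus, bind the TEAD DNA-binding factors and switch on targets such as Ctgf and Cyr61. The pathway responds to cell density, adhesion and matrix stiffness, and several of its inhibitors are themselves targets of YAP, which makes a negative feedback loop. Activity of the pathway lies mostly in phosphorylation and localisation of proteins, which RNA levels do not measure.

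The libraries were of near equal depth, with 20730124 reads assigned to genes in control and 20599573 in Seh1cKO. Seh1l itself was at 32.1 CPM in the control library against 18.5 CPM in Seh1cKO, 1.73-fold below control (1.53 to 1.97). The bracketed ranges in this text are exact 95% Clopper-Pearson intervals from the read counts of both libraries and cover counting error only. With no replicate, no difference could be tested against variation between cultures, and no p-value was computed here. The libraries also differed in markers of cell types, and in bulk RNA fewer cells of a type and less RNA per cell cannot be told apart. All 7 measured myelin and oligodendrocyte markers of a list of 8 were at least 2-fold lower in Seh1cKO, and their list had a summed level of 2676 CPM in the control library against 527 CPM in Seh1cKO. The list of 12 fibroblast and mural cell genes held 11 with a higher level in Seh1cKO, 7 of them at least 2-fold, with a summed level of 602 CPM in the control library against 1298 CPM in Seh1cKO and none at 0. Of 10 epithelial and mesothelial markers 8 were measured and 7 of those were at least 2-fold higher, with a summed level of 11.9 and 220 CPM, led by Krt8, and with Upk3b and Wt1 at 0 reads in Seh1cKO. The 8 precursor markers summed to 2821 and 2986 CPM, but lay on both sides of equality. Higher were Olig1 (864 and 873 CPM), Olig2 (496 and 648), Ptprz1 (488 and 657), Cspg4 (98.8 and 148) and Pdgfra (1.77-fold above control). Lower were Sox10 at 426 and 207 CPM, C1ql1 at 53.9 and 20.4 CPM and Lhfpl3 at 239 and 156 CPM. Of these, Sox10 and C1ql1 were at least 2-fold lower. The 8 astrocyte markers summed to 8828 and 5290 CPM, with most of that difference in Gfap, at 5200 and 2214 CPM. Of that list Gfap and S100b were at least 2-fold lower and 6 of 8 were below 0, while Gja1 was at 109 and 153 CPM and Aldh1l1 at 414 and 483 CPM. The 8 neuronal markers summed to 448 and 473 CPM, a sum carried by Map2 at 279 and 270.1 CPM, yet 5 of them were at least 1.5-fold higher, among them Stmn2 (2.05-fold) and Nefl (4.13-fold). The lists of 8 genes each summed to 12.1 and 30.7 CPM for endothelium and 8.54 and 18.2 CPM for microglia. Of these, 5 endothelial and 4 microglial genes were measured, with 4 of each list higher in Seh1cKO. Most of the endothelial difference lay in Cdh5, at 1.01 and 13.8 CPM, while Kdr was at 5.35 and 4.95 CPM. Cldn5 had 0 reads in control and 1 in Seh1cKO, and the microglial gene Aif1, not measured, had 12 and 4. Xist was at 0.868 and 341 CPM and the Y-linked gene Eif2s3y at 82.2 and 0.0485 CPM, so that genotype and the sex of the cells cannot be told apart either. Fibroblast, mural and epithelial cells are known to express YAP targets, and the part of these markers in the differences below was not tested.

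Most of the 32 members were moderately higher in the Seh1cKO library, and few stood past 2-fold. Log2 ratios given here subtract the control value of log2(CPM + 1) from that of Seh1cKO, a scale that understates the difference of low genes. The log2 ratio was above 0 for 26 of the 32 members, against 60.9% of the 13758 genes measured, and its median over the members was 0.39, against 0.07 over all measured genes. The members were chosen with earlier results of these data known. This does not describe the whole pathway. Of the 44 other measured Hippo pathway genes, described below, 25 (56.8%) were above 0, with a median of 0.03. At least 2-fold higher on that scale were 3 members, Vgll3, Ctgf and Mob1b, against 2.86% of all measured genes. None was at least 2-fold lower, against 1.29% of all measured genes. At a threshold of 1.5-fold, chosen after the values were seen, 10 members were higher, against 9.43% of all measured genes, and none was lower, against 3.52%. Those 10 were Vgll3, Ctgf, Mob1b, Crim1, Tead1, Amotl1, Ankrd1, Ajuba, Frmd6 and Amot. When the mean had to reach 10 CPM, 7 of 27 members were at least 1.5-fold higher, against 5.68% of all such genes. The counting interval of the ratio lay wholly above 1 for 22 members, against 35.5% of all measured genes, and wholly below 1 for 3, Limd1, Tead3 and Nt5e, against 20% of all measured genes. For the remaining 7 members it included 1.

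**Figure D1:**
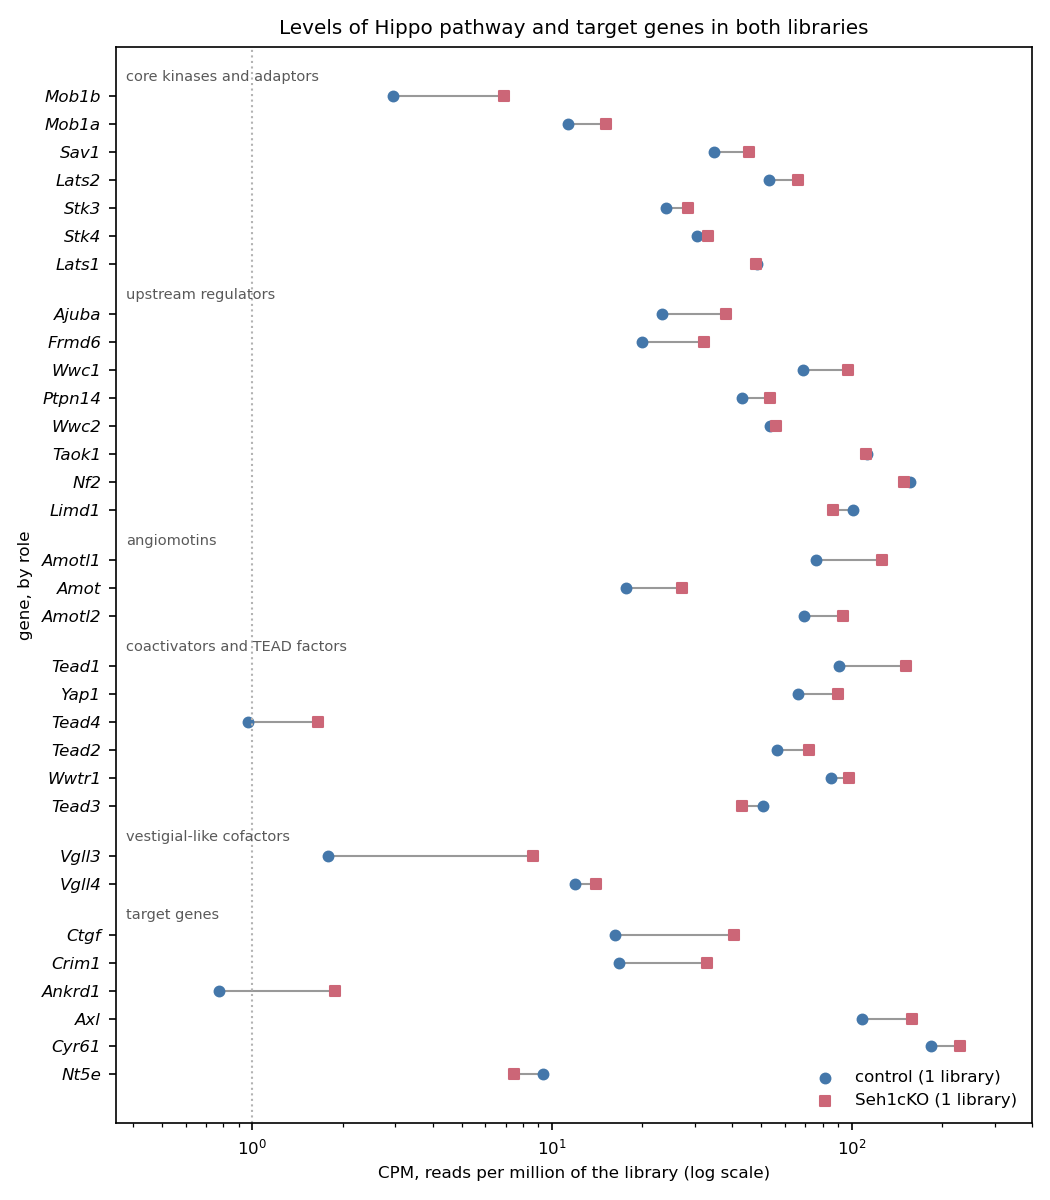
Level of each of the 32 members in the control library (circles) and the Seh1cKO library (squares), in CPM on a log axis, grouped by role; the dotted line marks 1 CPM. Most squares lie to the right of their circles, with the longest distances at Vgll3 (1.78 and 8.64 CPM) and Ctgf (16.3 and 40.6 CPM).

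The rule for these genes sets the pathway's own components beside its target genes. The median log2 ratio was 0.37 over the 26 components, from -0.23 for Tead3 to 1.79 for Vgll3, and 0.63 over the 6 target genes, from -0.28 for Nt5e to 1.27 for Ctgf. Above 0 were 21 of 26 components (80.8%) and 5 of 6 targets (83.3%), against 60.9% of all measured genes. Both medians lay above that of all measured genes, and the ranges of components and targets overlapped over most of their length. With 6 targets and no replicate, the distance between both medians was not tested. The components include 4 genes that are also reported targets, Lats2, Amotl2, Ajuba and Ptpn14, whose log2 ratios ran from 0.30 to 0.69. With those 4 counted as targets, the medians were 0.37 over 22 components and 0.49 over 10 targets.

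**Figure D2:**
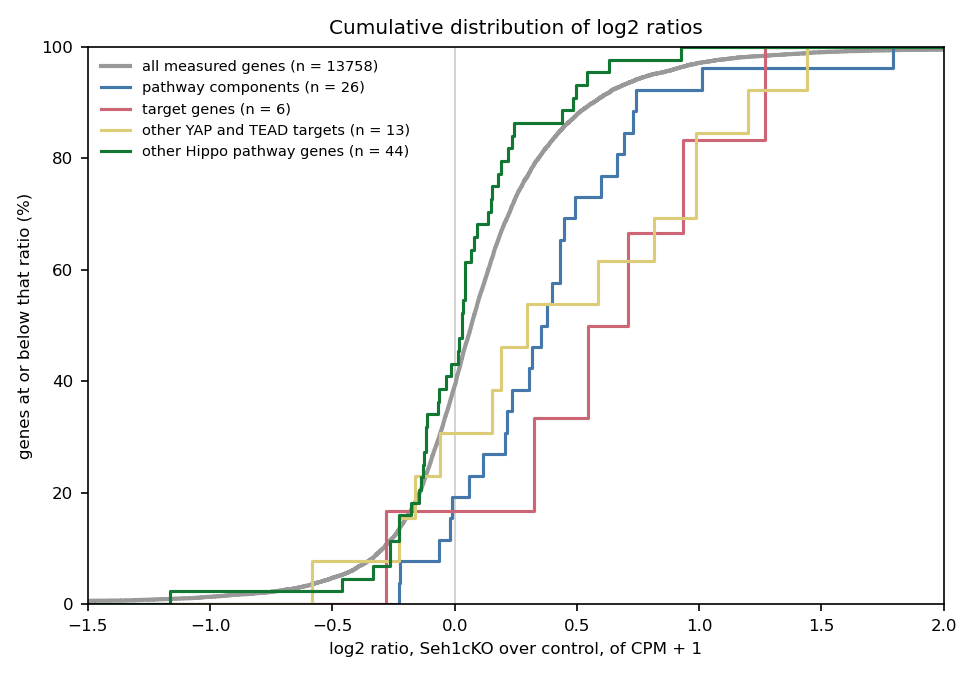
Cumulative share of genes, in percent, at or below a given log2 ratio of CPM + 1 (Seh1cKO over control) for all 13758 measured genes, the 26 pathway components, the 6 target genes and the 2 comparison lists of 13 other YAP and TEAD targets and 44 other Hippo pathway genes. The curves of components and targets lie to the right of that of all genes over most of the range, and the curve of other Hippo pathway genes runs close to it.

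Among the target genes, Ctgf and Crim1 stood furthest from equality at a level well above the floor, and Nt5e had the opposite sign. Ctgf, also named Ccn2, encodes a secreted matricellular protein and is the most widely used readout of YAP activity (GRCm38 chromosome 10, 24595442 to 24598683). It was at 16.3 CPM in the control library against 40.6 CPM in Seh1cKO, from 337 and 836 reads, 2.50-fold above control (2.20 to 2.84). Crim1, a transmembrane protein that binds BMPs, was at 16.7 CPM in the control library against 32.9 CPM in Seh1cKO, 1.97-fold above control (1.73 to 2.24). The locus of Crim1 overlaps Fez2, which is expressed here, and the sources used here do not give the strand setting of the counting, so reads of this neighbour may be included. Axl, a receptor tyrosine kinase for Gas6, was at 108 CPM in the control library against 158 CPM in Seh1cKO, 1.47-fold above control (1.39 to 1.55). Cyr61, also named Ccn1, is a close relative of Ctgf. It was at 184 CPM in the control library against 231 CPM in Seh1cKO, 1.25-fold above control (1.20 to 1.31). Both secreted relatives were thus higher in the same library, and the counting intervals of their ratios did not overlap, that of Ctgf being the higher. On the deposited FPKM scale, which divides by transcript length, Cyr61 remained the more abundant, at 90.7 and 113.8 FPKM, with Ctgf at 6.70 and 16.7 FPKM. Ankrd1, a muscle ankyrin repeat protein, was near the floor, at 0.772 CPM in the control library against 1.89 CPM in Seh1cKO from 16 and 39 reads. Its ratio of 2.45 (1.34 to 4.70) is correspondingly imprecise, and it was past 2-fold only with a pseudocount of 0.1 CPM among the settings tried. Nt5e, the ectonucleotidase CD73, was at 9.31 CPM in the control library against 7.48 CPM in Seh1cKO, from 193 and 154 reads. Its ratio was 0.803, and the upper end of the interval, 0.998, lay close to equality (lower end 0.645).

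The proximal promoters of these targets are shown because YAP has no DNA-binding domain of its own and reaches its targets through TEAD factors. For 5 of the 6 target genes and for Vgll3 and Mob1b, the other members past 2-fold, the 250 bases before the transcript start are given below, 5′ to 3′ on the strand of the gene, from RefSeq on GRCm38.p6. Capitals mark each match to GGAATG, the core of the motif that TEAD factors bind, or to its reverse complement CATTCC. The Ctgf, Stk3, Tead1, Tead4 and Limd1 promoters are not shown or searched.
Cyr61 (chr3:145649986-145650235, minus strand): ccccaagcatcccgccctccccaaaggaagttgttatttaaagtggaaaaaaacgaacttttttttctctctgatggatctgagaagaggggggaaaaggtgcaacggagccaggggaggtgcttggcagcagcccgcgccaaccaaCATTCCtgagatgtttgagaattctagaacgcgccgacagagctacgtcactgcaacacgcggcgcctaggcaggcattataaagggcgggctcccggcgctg
Ankrd1 (chr19:36119845-36120094, minus strand): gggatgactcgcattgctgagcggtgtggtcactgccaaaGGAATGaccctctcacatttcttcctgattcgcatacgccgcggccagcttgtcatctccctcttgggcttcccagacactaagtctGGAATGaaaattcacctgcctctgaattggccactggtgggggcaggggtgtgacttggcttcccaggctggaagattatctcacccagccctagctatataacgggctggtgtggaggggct
Axl (chr7:25788734-25788983, minus strand): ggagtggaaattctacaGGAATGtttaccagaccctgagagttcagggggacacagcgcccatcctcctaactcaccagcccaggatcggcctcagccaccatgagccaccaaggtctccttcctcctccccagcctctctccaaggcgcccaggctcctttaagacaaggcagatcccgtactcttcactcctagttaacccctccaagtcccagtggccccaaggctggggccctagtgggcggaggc
Crim1 (chr17:78199998-78200247, plus strand): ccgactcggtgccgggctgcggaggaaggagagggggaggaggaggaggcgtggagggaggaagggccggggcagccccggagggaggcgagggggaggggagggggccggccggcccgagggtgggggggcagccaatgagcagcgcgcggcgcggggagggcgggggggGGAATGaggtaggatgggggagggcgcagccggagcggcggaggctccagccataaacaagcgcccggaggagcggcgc
Nt5e (chr9:88327359-88327608, plus strand): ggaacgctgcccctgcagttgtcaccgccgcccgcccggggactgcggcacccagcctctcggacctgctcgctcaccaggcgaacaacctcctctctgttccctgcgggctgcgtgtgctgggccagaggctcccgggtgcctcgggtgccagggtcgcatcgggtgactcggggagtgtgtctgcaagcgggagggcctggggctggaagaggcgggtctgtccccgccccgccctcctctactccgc
Vgll3 (chr16:65814939-65815188, plus strand): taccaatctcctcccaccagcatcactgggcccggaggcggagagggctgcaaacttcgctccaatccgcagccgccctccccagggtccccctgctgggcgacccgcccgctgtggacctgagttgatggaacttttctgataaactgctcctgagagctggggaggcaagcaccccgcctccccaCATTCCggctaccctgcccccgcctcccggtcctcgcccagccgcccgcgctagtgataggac
Mob1b (chr5:88720621-88720870, plus strand): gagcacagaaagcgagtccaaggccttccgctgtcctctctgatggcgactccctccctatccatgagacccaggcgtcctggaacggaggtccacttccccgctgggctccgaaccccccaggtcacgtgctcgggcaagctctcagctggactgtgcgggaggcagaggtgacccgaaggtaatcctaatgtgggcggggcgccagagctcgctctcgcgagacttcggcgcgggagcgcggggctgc

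In these windows, Ankrd1 holds 2 matches, which begin 210 and 123 bases before the start, and Cyr61 holds 1, 103 bases before it. Crim1 has a match 79 bases, Axl 233 bases and Vgll3 63 bases before the start. The annotated loci of Axl (to 25788924) and Crim1 (from 78200233) reach into their printed windows, so the starts used for them are not the outermost. Nt5e and Mob1b have no match in the window, which says only that these letters are not there. Over windows of 300 bases (250 before to 50 after the start), the motif was found on either strand in 18 of 32 windows of the members, and in 14.7% of all 32817 windows of the RefSeq table. By gene, 16 of the 27 members with a window held a match, as did 14.5% of the 10920 measured genes with one. It was held by 4 of 5 target genes and by 12 of 22 components, among them Yap1 and Wwtr1. The members were chosen from knowledge of the pathway, and some windows of 1 gene overlap and share a match. The median log2 ratio was 0.39 over the 16 members with a match and 0.35 over the 11 without, and over all measured genes it was 0.08 and 0.06. Among components it was 0.35 over the 12 with a match and 0.42 over the 10 without. Among target genes it was 0.63 over the 4 with a match, against -0.28 for Nt5e, the 1 gene without. A single gene cannot give an order, and Ctgf, at 1.27, had no window. The AP-1 motif TGANTCA, searched on both strands, was in none of the members' windows and in 7.81% of all windows. A match to 6 or 7 letters is a description of the sequence and not evidence of binding.

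**Figure D3:**
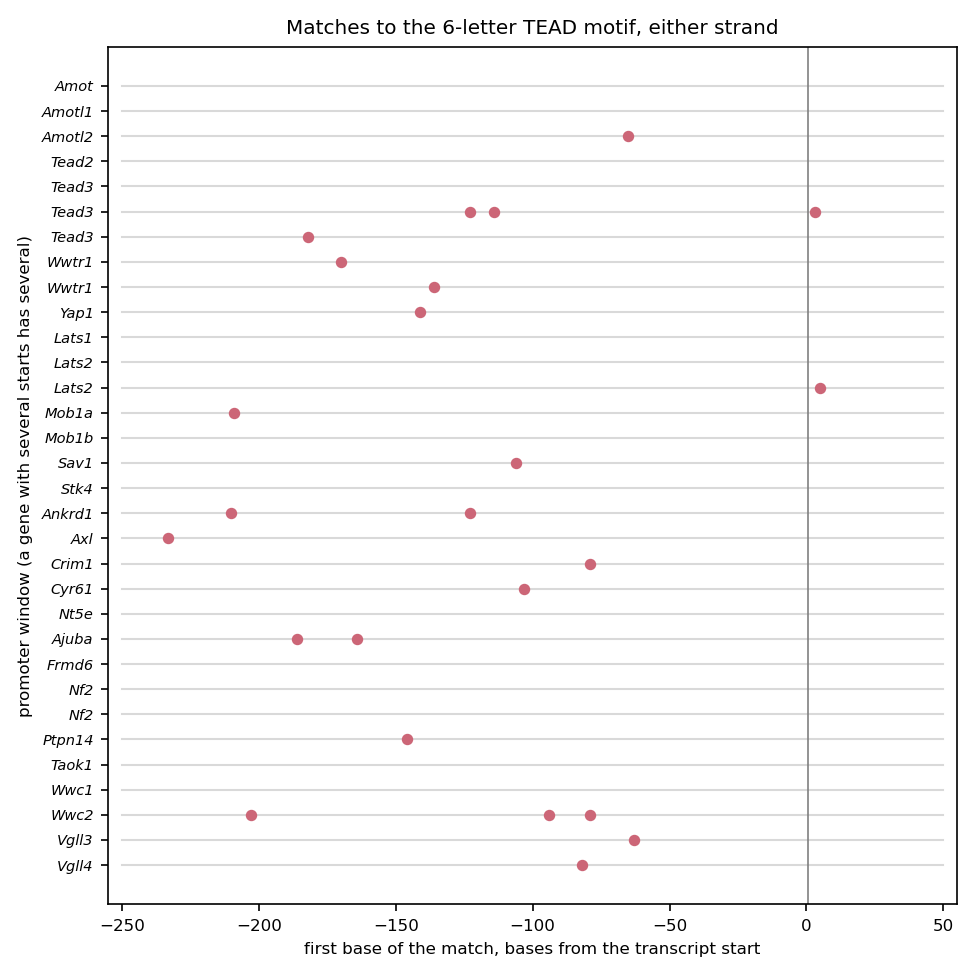
Position of each match to GGAATG or its reverse complement (points) in the 32 promoter windows of 27 members, by the distance in bases of its first letter from the transcript start; each grey line is 1 window of 300 bases. Matches lie in 18 windows, most of them before the start.

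A further 13 genes reported as YAP and TEAD targets, listed with earlier results of these data known, were measured for comparison. Of these, 9 (69.2%) were above 0, near the 60.9% of all measured genes, and 2 (15.4%) were at least 2-fold higher, against 2.86% of all measured genes. At 1.5-fold on the same log2 scale, 6 (46.2%) were higher, against 9.43% of all measured genes. That threshold was chosen after the values were seen. The counting interval lay wholly above 1 for 9 (69.2%), against 35.5% of all measured genes, and wholly below 1 for 3, against 20%. Their median log2 ratio was 0.30. Foxf2, a forkhead factor of mesenchyme and pericytes, was at 0.675 CPM in the control library against 3.54 CPM in Seh1cKO, from 14 and 73 reads, a ratio of 5.25 (2.94 to 10.1). Dock5, a guanine nucleotide exchange factor, was at 2.65 and 7.38 CPM, 2.78-fold above control (2.03 to 3.86). The secreted IGF carrier Igfbp3 was far more abundant, also per length, at 614 CPM in the control library against 1218 CPM in Seh1cKO, 1.98-fold above control (1.94 to 2.03). Myof, a membrane repair protein, was at 36.8 and 73.9 CPM, 2.01-fold above control (1.84 to 2.19) and at 0.99 on the log2 scale with the pseudocount. The list therefore did not share 1 direction. The extracellular matrix protein Ccdc80 (chosen after its value was seen) was at 56.0 CPM in the control library against 37.0 CPM in Seh1cKO, 1.51-fold below control (1.38 to 1.66), and the intervals of Fjx1 and Tgfb2 also lay below 1.

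Among the coactivators, Yap1 differed more than its paralogue. Yap1 (chromosome 9, 7931999 to 8004638) was at 66.0 CPM in the control library against 90.3 CPM in Seh1cKO, from 1368 and 1860 reads, 1.37-fold above control (1.28 to 1.47). Wwtr1, which encodes TAZ (chromosome 3, 57455644 to 57575910), was at 85.2 CPM in the control library against 98.3 CPM in Seh1cKO, 1.15-fold above control (1.08 to 1.23). The intervals of both ratios did not overlap. Per transcript length the paralogues were close, with Yap1 at 15.7 and 21.5 FPKM and Wwtr1 at 17.7 and 20.4 FPKM, so that Wwtr1 was the higher in control and Yap1 in Seh1cKO.

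The TEAD factors, which give YAP and TAZ their DNA binding, went in different directions. Tead1 (chromosome 7, 112679356 to 112906784) was at 90.8 CPM in the control library against 152 CPM in Seh1cKO, from 1883 and 3139 reads, 1.68-fold above control (1.58 to 1.78). Tead2, known for expression in neural precursors, was at 56.3 CPM in the control library against 72.2 CPM in Seh1cKO, 1.28-fold above control (1.19 to 1.39). Tead3 was at 50.7 CPM in the control library against 43.2 CPM in Seh1cKO, 1.17-fold below control (1.07 to 1.28). These 3 intervals did not overlap one another. Tead4, best known from the trophectoderm, had 20 reads in control and 34 in Seh1cKO, at 0.965 and 1.65 CPM, and the interval of its ratio of 1.71 included 1 (0.957 to 3.14). On the FPKM scale the order was the same in both libraries, with Tead2 highest (26.6 and 34.1), then Tead3 (20.1 and 17.2), Tead1 (9.37 and 15.8) and Tead4 (0.31 and 0.56). Tead1 thus came close to Tead3 in the Seh1cKO library and stood well below it in control.

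**Figure D4:**
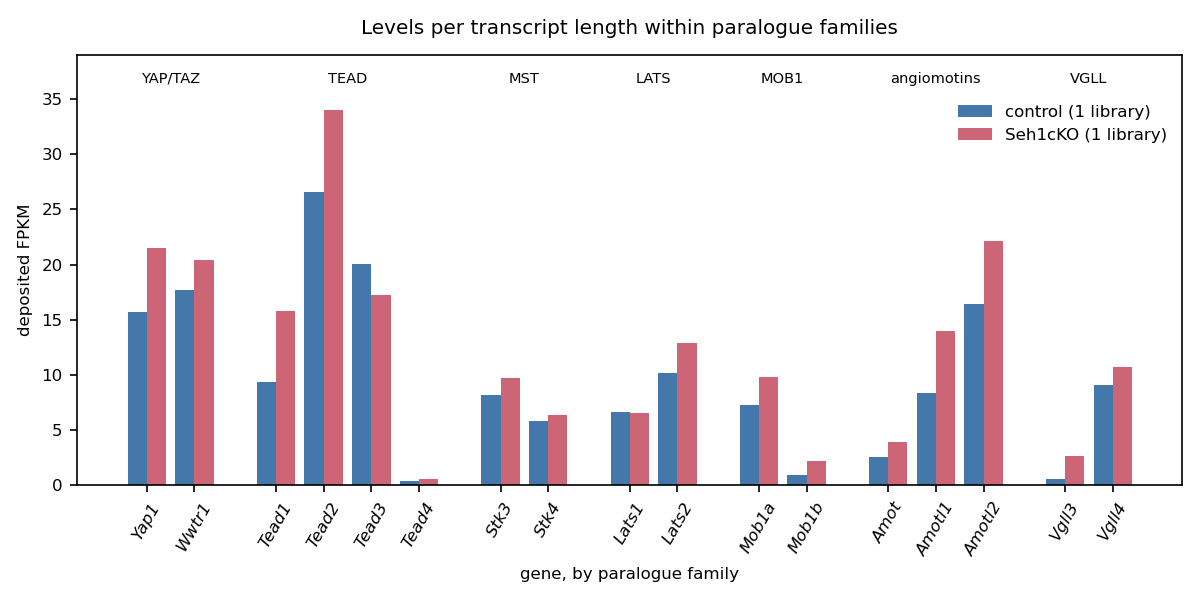
Deposited FPKM values of the paralogue families of the pathway in the control library (left bars) and the Seh1cKO library (right bars), 1 library each, with no error bars because there is no replicate. Tead2 is the highest TEAD gene in both libraries, and Tead1 is at 9.37 FPKM in control and 15.8 FPKM in Seh1cKO.

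Vestigial-like proteins bind the same surface of TEAD as YAP. Vgll3, which is known as a TEAD cofactor in mesenchymal and muscle cells (chromosome 16, 65815189 to 65866368), had the largest ratio of all 32 members. It was at 1.78 CPM in the control library against 8.64 CPM in Seh1cKO, from 37 and 178 reads, 4.84-fold above control (3.38 to 7.10). Its level was low in both libraries, and its log2 ratio of 1.79 was 1.01 with a pseudocount of 5 CPM and 1.22 on the FPKM scale. Vgll4, which competes with YAP for TEAD, was at 11.96 CPM in the control library against 14.0 CPM in Seh1cKO. Its ratio of 1.17 had an interval that included 1 (0.986 to 1.40). Fibroblast and mural cell markers, in the same libraries, summed to 602 and 1298 CPM, and their part in the Vgll3 value was not tested.

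The core kinases and their adaptors stood close to equality or slightly higher, with Mob1b furthest from it. Mob1b, a LATS coactivator, was at 2.94 CPM in the control library against 6.94 CPM in Seh1cKO, from 61 and 143 reads, 2.36-fold above control (1.74 to 3.24). It was not past 2-fold with a pseudocount of 5 CPM, after either rescaling or on the FPKM scale, and it lay below a floor of 5 CPM. Its paralogue Mob1a, the more abundant by FPKM, was at 11.3 CPM in the control library against 15.2 CPM in Seh1cKO, 1.35-fold above control (1.13 to 1.60). Sav1, the scaffold of the MST kinases, was at 34.7 and 45.4 CPM, 1.31-fold above control (1.19 to 1.44). Both adaptor types were thus higher in Seh1cKO. The MST kinase genes were nearer to 1, with Stk3 (MST2) at 24.1 and 28.5 CPM, a ratio of 1.18 (1.05 to 1.34), and Stk4 (MST1) at 30.5 and 33.2 CPM, a ratio of 1.09 (0.973 to 1.21). Lats1 and Lats2, the kinases that phosphorylate YAP and TAZ, differed from each other. Lats1 was at 48.3 CPM in the control library against 48.0 CPM in Seh1cKO, a ratio of 0.993 (0.909 to 1.09), and its locus overlaps Pcmt1. Lats2, itself a reported target of YAP, was at 53.2 CPM in the control library against 66.4 CPM in Seh1cKO, 1.25-fold above control (1.15 to 1.35). Over all 7 kinase and adaptor genes the median log2 ratio was 0.32.

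**Figure D5:**
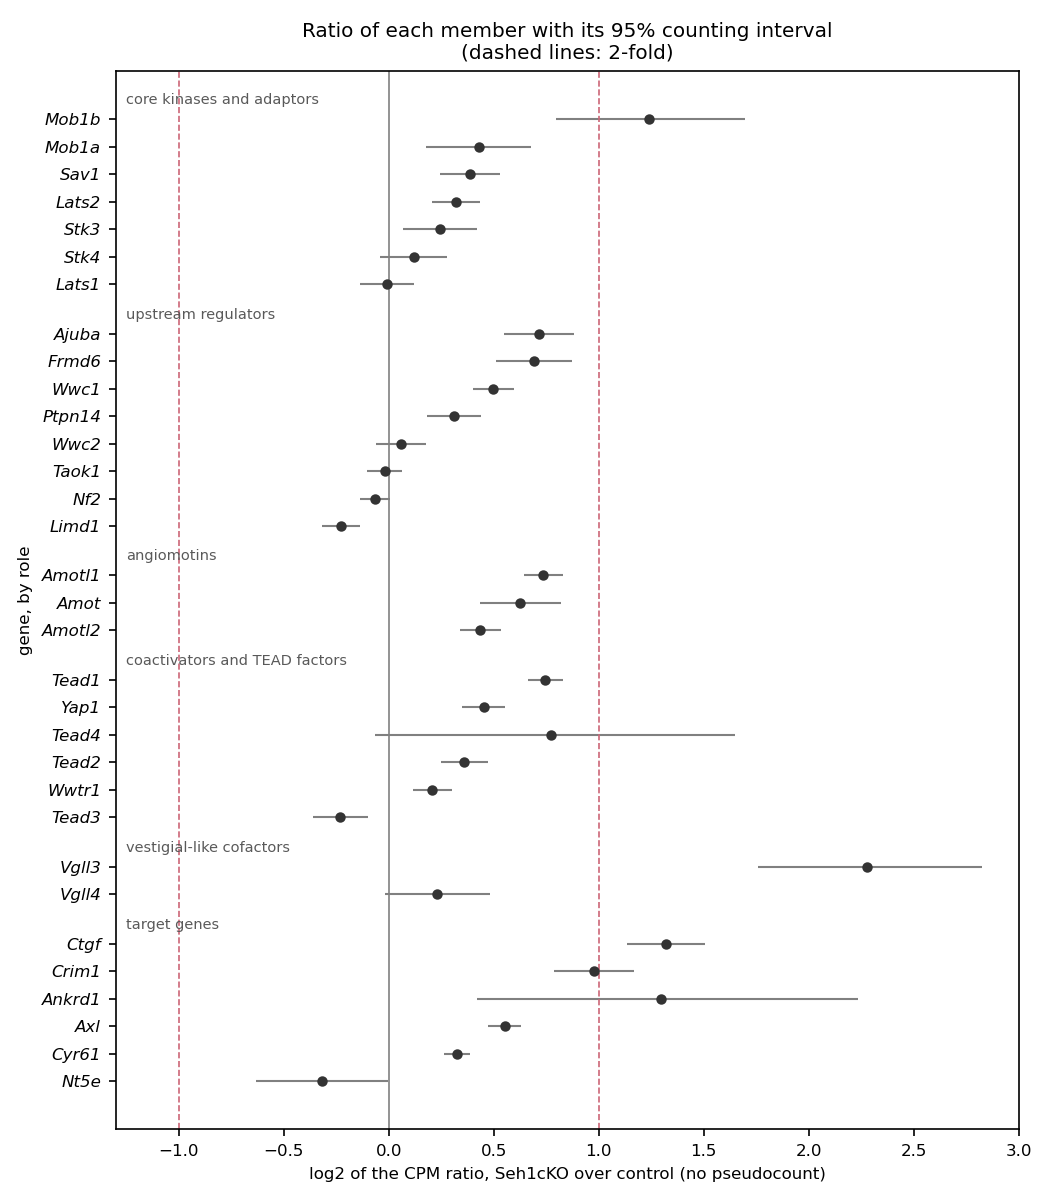
Log2 of the CPM ratio of each member, Seh1cKO over control and without a pseudocount, with its exact 95% counting interval (horizontal bars), grouped by role; dashed lines mark 2-fold. The points of Vgll3, Ctgf, Ankrd1 and Mob1b lie past the upper dashed line, and Limd1, Tead3 and Nt5e have intervals below 0.

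The angiomotins bind YAP and hold it at junctions and on actin. All 3 were higher in Seh1cKO, as were 60.9% of all measured genes. Their 3 intervals lay wholly above 1, as did 35.5% of those over all measured genes. Amotl1 was at 76.1 CPM in the control library against 127 CPM in Seh1cKO, 1.67-fold above control (1.56 to 1.77). Amotl2, a feedback target of YAP, was at 69.4 CPM in the control library against 93.9 CPM in Seh1cKO, 1.35-fold above control (1.26 to 1.45). Amot was at 17.7 CPM in the control library against 27.2 CPM in Seh1cKO, 1.54-fold above control (1.35 to 1.76). Amot is the only X-linked member, and the libraries differ in sex-linked genes. The median log2 ratio of the 463 measured genes on chromosome X was 0.09, against 0.07 over all measured genes. That median does not describe single genes, and the part of sex in the Amot value was not tested. By FPKM, Amotl2 was the highest of the family in both libraries, at 16.4 and 22.2.

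The 8 upstream regulators had a median log2 ratio of 0.18, with 5 (62.5%) above 0, near the 60.9% of all measured genes. Ajuba, a LIM protein that restrains LATS and a reported YAP target, was at 23.3 CPM in the control library against 38.2 CPM in Seh1cKO, 1.64-fold above control (1.47 to 1.84). Frmd6, a FERM protein also named Willin, was at 20.0 CPM in the control library against 32.2 CPM in Seh1cKO, 1.61-fold above control (1.43 to 1.83). Wwc1, which encodes KIBRA, an activator of LATS that works with merlin, was at 69.0 and 97.4 CPM, 1.41-fold above control (1.32 to 1.51). Restraining and activating regulators were therefore both among the higher genes. Ptpn14, a phosphatase that binds YAP, was at 43.1 CPM in the control library against 53.4 CPM in Seh1cKO, 1.24-fold above control (1.13 to 1.36). Others were near equality. Nf2, which encodes the tumour suppressor merlin and was the most abundant upstream regulator by FPKM, was at 157 CPM in the control library against 150 CPM in Seh1cKO, a ratio of 0.957 (0.911 to 1.01). Taok1, a kinase that activates the MST kinases, was at 113 and 111 CPM, and Wwc2, a relative of KIBRA, at 53.6 and 55.8 CPM. The intervals of both ratios included 1, and the sign of Wwc2 turned after rescaling by the median of ratios. Limd1, a LIM protein related to Ajuba, was at 101 CPM in the control library against 86.7 CPM in Seh1cKO, 1.17-fold below control (1.10 to 1.25). The LIM proteins Ajuba and Limd1 thus stood on opposite sides of equality.

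A wider list of 51 other Hippo pathway genes, also drawn up with earlier results known, stood near the background. Of these 44 were measured, and 25 (56.8%) were above 0, against 60.9% of all measured genes. None was at least 2-fold higher, against 2.86% of all measured genes, and 1 was at least 2-fold lower, against 1.29%. The median log2 ratio was 0.03. The 1 lower gene was Mink1, a MAP4K-type kinase that can phosphorylate LATS, at 260 CPM in the control library against 115 CPM in Seh1cKO, from 5380 and 2371 reads, 2.25-fold below control (2.15 to 2.37). The giant cadherin Fat4 was at 18.1 and 35.3 CPM, 1.95-fold above control (1.72 to 2.21), and Rassf4, a RASSF-type adaptor, at 30.1 and 47.3 CPM, 1.57-fold above control (1.42 to 1.74).

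The authors' deposited table of 896 genes lists 3 of the 32 members, all as higher in Seh1cKO. In the authors' deposited table, Vgll3 has a log2 fold change of 2.28 and a false discovery rate of 1.99e-22, Ctgf 1.32 and 1.40e-48, and Mob1b 1.24 and 3.84e-08. Of the other YAP and TEAD targets, the authors' deposited table holds Foxf2, Dock5 and Myof, and of the other Hippo pathway genes Mink1, as lower. The sources used here do not name the test behind the authors' rates, and with 1 library per group it compares libraries and not conditions. Their fold changes come from the same libraries as the values above.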

How the data were processed

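RNA was sequenced from 1 control and 1 Seh1cKO library. Per the file headers, the authors deposited 2 measures for each gene, expected counts and FPKM. HTSeq, StringTie and mm10 stand in the submitters' processing notes, with no role; the sources used here do not give the aligner, library strand or counting options. Expected counts were not whole for 11 of the 32 members, so reads may have been split between genes or isoforms. The authors also deposited a comparison table of log2 fold changes, p-values and false discovery rates; their test is not given. No column of per-sample values was left unmapped.

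Here expected counts were rounded, scaled to CPM by the library total and compared as log2(CPM + 1); genes whose mean reached 1 CPM were measured. Genes missing from a table were set to 0. Of 18651 identifiers, 18611 matched RefSeq (GRCm38.p6, the assembly behind mm10), which gave coordinates and promoters. Ratios of CPM carry exact 95% Clopper-Pearson intervals (SciPy 1.17.1, Python 3.11.15). They were tried on simulated Poisson counts, the model that they assume, which checks the computation and not their fit to these libraries. Reads without molecular identifiers may make them too narrow. A count of 0 allows 3 reads, 0.145 CPM in the control library against 0.146 CPM in Seh1cKO. The members, lists, rules and alternatives were chosen with earlier results of these data known. Named besides the members were listed genes past 2-fold or, where fewer than 3 were, also the 3 with the largest log2 ratio at 5 CPM or more, and leading cell markers. Not every marker that the rule picks is printed, and some markers outside the rule were named with their values known. The rule showed promoters only for targets past 2-fold. Of the 6 target genes only Ctgf was past it, and its promoter is not shown. All promoters shown were added after values were seen. Protein sequences were not used here. Alternatives changed the pseudocount, scaling, unit, floor, chromosomes and grouping.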

Additional observations from a re-analysis of the deposited data

How the results depend on the processing

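No paired analysis was possible because each group has 1 library, and for the same reason no replicate could be left out. Of the 32 members, 2 to 4 were at least 2-fold higher under each alternative pseudocount, scaling, unit and floor and none was at least 2-fold lower; Vgll3 and Ctgf were past 2-fold in all of them. The median log2 ratio ran from 0.29 to 0.37 over components and from 0.42 to 0.76 over targets, with the components at 0.29 after rescaling by the median of ratios. Wwc2 alone changed sign, under that rescaling, which took the median log2 ratio of all genes from 0.07 to -0.0050. With a threshold of 1.5-fold, chosen after the data were seen, 10 members were higher, and over all genes 1297 were higher and 484 lower. The count of all genes at least 2-fold higher, 394, was 637 with a pseudocount of 0.1 CPM, 141 with 5 CPM (and 116 lower in place of 178), 204 on the FPKM scale and 228 with a floor of 5 CPM (the cause was not tested). The higher share of all calls was 68.9%, against 54.9% with a pseudocount of 5 CPM and 58.0% on the FPKM scale. Depth limits Tead4, Ankrd1, Vgll3 and Mob1b, at 16 to 178 reads.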

Other observations

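Within the wider list of Hippo pathway genes, the groups lay on both sides of equality. Of 9 TAO and MAP4K kinase genes, which act beside the MST kinases on LATS, 7 were below 0 and 2 (22.2%) above it, against 60.9% of all measured genes, with a median log2 ratio of -0.12. Map4k4, the most abundant of them by FPKM, was at 491 CPM in the control library against 443 CPM in Seh1cKO, 1.11-fold below control (1.08 to 1.14), while Map4k3 was at 44.1 and 62.0 CPM, 1.41-fold above control (1.29 to 1.53). Of 10 genes of the STRIPAK phosphatase complex, which removes activating phosphates from the MST kinases, 5 were above and 5 below 0. That is 50% above 0, against 60.9% of all measured genes, with log2 ratios from -0.26 to 0.23. The giant cadherins Fat4, Dchs1 and Fat1, which mediate contact between neighbouring cells, were above 0 (the other measured gene of their group, Fjx1, was at -0.23), Dchs1 at 63.3 and 89.8 CPM (1.42-fold, 1.32 to 1.52) and Fat1 by 1.11-fold (1.06 to 1.16). Of 8 measured polarity and junction genes 7 (87.5%) were above 0, against the same 60.9%, but the median log2 ratio was 0.16 and none was at least 1.5-fold higher. Tjp1, the tight junction scaffold ZO-1, was at 98.3 and 143 CPM, 1.46-fold above control (1.38 to 1.54), and the lateral polarity gene Llgl1 was at 210.5 and 167 CPM, 1.26-fold below control (1.21 to 1.32). Genes named in this paragraph were chosen after their values were seen. Epithelial and mesothelial markers summed to 11.9 CPM in the control library against 220 CPM in Seh1cKO in the same libraries, and their part in these values was not tested.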
